A study of Mus musculus with 384 samples.

Results

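The cells compared here are dopamine neurons rich in tyrosine hydroxylase mRNA (*Th*) that held either much or little mRNA of *Slc6a3*, the gene of the dopamine transporter (DAT). Of the 384 single cells in the count table, 209 had at least 500000 counts, and 181 of these had *Th* at 1000 counts per 1000000 counts of the cell (CPM) or more. Among the 181 *Th*-rich cells, 102 had *Slc6a3* at 3000 CPM or more and are called DAT-high, and 44 had it below 1500 CPM and are called DAT-low. The 35 cells between these limits were left out of the comparison, so that it covers 146 of the 384 cells. The cells were chosen by the measured levels of *Slc6a3* and *Th*. These levels are therefore given as a description, *Slc6a3* was removed from the test, and the test of every other gene asks what else differed between *Th*-rich neurons at the ends of the DAT range.

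DAT sits in the plasma membrane of dopamine neurons and takes released dopamine back into the cell, which ends its action and returns it to the terminal. There the vesicular monoamine transporter, encoded by *Slc18a2*, loads it into synaptic vesicles, after tyrosine hydroxylase and aromatic amino acid decarboxylase (*Ddc*) have made it from tyrosine. Midbrain dopamine neurons differ in how much DAT they hold: those of the substantia nigra are known for high levels, and parts of the ventral tegmental area and the hypothalamic dopamine groups for low ones.

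All cells came from untreated DAT-Cre;Ai9 mice of the C57BL6/J strain, 3 labelled female and 5 labelled male, aged 24 to 36 d. Cre is made from the *Slc6a3* locus in these mice and switches on tdTomato for good, so tdTomato+ cells are cells in which the locus was active at some time. Within a mouse, both classes carried the same alleles. The dissected tissue held the midbrain and the hypothalamus, live tdTomato+ cells were sorted, and each was captured in a Fluidigm C1 chamber, with 1 chip run per mouse. Both classes of a mouse therefore shared their chip, while mouse and chip run cannot be told apart.

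In the DAT-high cells *Slc6a3* had a median of 4742 CPM (range 3033–8561), and in the DAT-low cells a median of 739 CPM (range 72.8–1424). The cells nearest to the limits on the inside were at 3033 and 3034 CPM in the upper class and at 1349 and 1424 CPM in the lower one, and those nearest outside at 2941 and 2982 CPM and at 1508 and 1509 CPM. For *Th* the nearest cells were at 1083 and 1107 CPM inside and at 757 CPM outside. Cells on either side of the *Slc6a3* limits thus differed by little, while a gap lay at the *Th* limit. *Th* had a median of 7599 CPM (range 1461–20470) in the DAT-high cells and of 5265 CPM (range 1083–12803) in the DAT-low cells, so its ranges overlapped over most of their length.

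**Figure D1:**
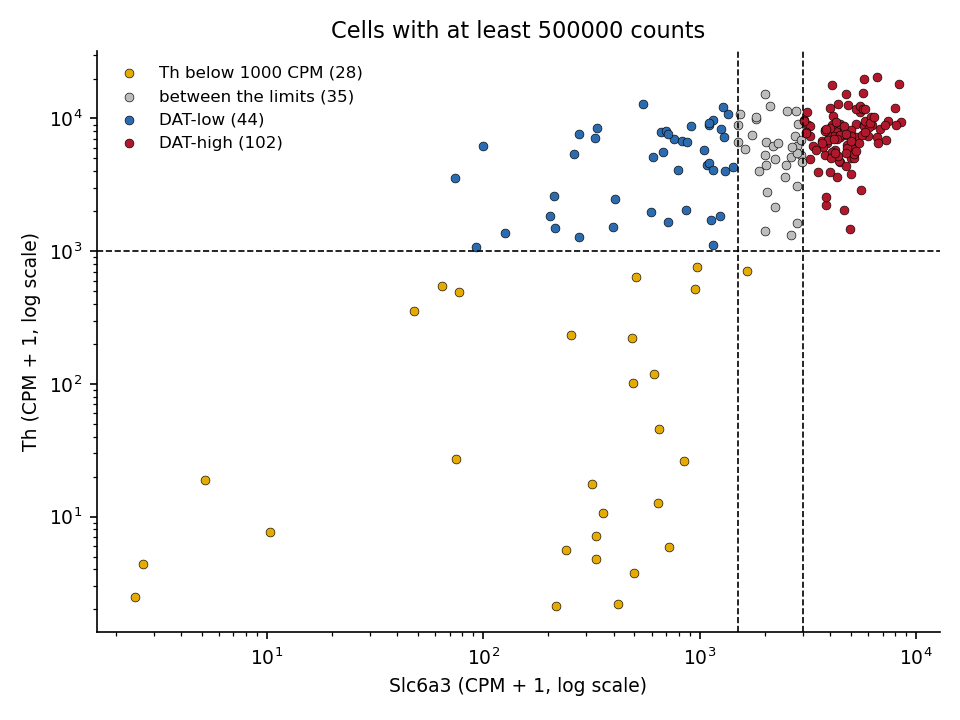
Level of *Th* against that of *Slc6a3* in the 209 cells with at least 500000 counts, both in CPM plus 1 on log axes, 1 point per cell. Dashed lines mark the limits at 1000 CPM of *Th* and at 1500 and 3000 CPM of *Slc6a3*; the 102 DAT-high cells form a dense group, whereas the 44 DAT-low cells are spread from 72.8 to 1424 CPM of *Slc6a3*.

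The share of the classes differed between mice. Mouse 3 had 40 DAT-high cells and 1 DAT-low cell among 44 *Th*-rich cells, and mouse 4 had 5 and 2 among 8. In the other mice the numbers of DAT-high and DAT-low cells were 3 and 5 (mouse 1), 14 and 7 (mouse 2), 18 and 7 (mouse 5), 6 and 3 (mouse 6), 10 and 8 (mouse 7), and 6 and 11 (mouse 8). Within each mouse, the counts of a class were added up. These 6 mice, 2 female and 4 male, had at least 3 cells of each class and entered the test, with 57 DAT-high and 41 DAT-low cells. The sums held 2650927–16452253 counts for the DAT-high class and 1866821–9702864 for the DAT-low class. The 6 mice are the replicates. The main test took both sums of a mouse as separate samples and did not use their pairing, and an alternative took the mouse as a block. The labels name 1 animal per chip run, so the spread includes that between animals and that between runs.

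The DAT-low cells had yielded less cDNA. The median cDNA concentration of a mouse's cells was 5.05 ± 1.82 ng/µl (SD, n = 6 mice) in the DAT-high class and 3.18 ± 0.870 ng/µl in the DAT-low class, a difference of 1.87 ng/µl that had the same direction in 6 of 6 mice (two-sided exact permutation of signs, p = 0.03125, the lowest value possible with 6 mice). The number of detected genes was 9433 ± 392 and 8146 ± 630, and the total counts per cell were 938020 ± 77909 and 764787 ± 101576, each higher in the DAT-high cells of 6 of 6 mice with the same exact permutation p = 0.03125. The choice of cells had set a floor of 500000 on total counts in both classes, so their test holds above this floor alone. These differences move with every gene difference below, and their part in it was not tested. With cells thinned to 500000 counts each, 23 genes passed the test in place of 27. Among cells with 2.5–5 ng/µl of cDNA, 4 male mice qualified and 4 genes passed. In those cells the log2 fold changes were -7.47 for *Gad2*, 5.51 for *Col25a1*, 2.39 for *Kcnn3*, 1.69 for *Serpine2*, 1.05 for *Ddc*, and -0.53 for *Runx1t1*, against -8.28, 4.84, 2.45, 2.51, 1.18, and -2.18 over all cells.

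The RefSeq promoter windows of GRCm38.p6 (250 bases before to 50 after a transcription start) are shown for the gene that set the classes and for the 3 called genes around which the account below turns, *Ddc*, *Serpine2*, and *Gad2*. Capitals mark letters of a motif found on either strand.
*Slc6a3*, chr13:73536497-73536796, plus strand: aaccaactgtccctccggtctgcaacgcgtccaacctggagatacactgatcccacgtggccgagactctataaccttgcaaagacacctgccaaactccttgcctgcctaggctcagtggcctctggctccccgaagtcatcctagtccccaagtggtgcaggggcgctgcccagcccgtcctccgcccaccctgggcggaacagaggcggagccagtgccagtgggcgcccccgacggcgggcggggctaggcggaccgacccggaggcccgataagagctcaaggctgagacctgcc
*Ddc*, upstream start, chr11:11898095-11898394, minus strand: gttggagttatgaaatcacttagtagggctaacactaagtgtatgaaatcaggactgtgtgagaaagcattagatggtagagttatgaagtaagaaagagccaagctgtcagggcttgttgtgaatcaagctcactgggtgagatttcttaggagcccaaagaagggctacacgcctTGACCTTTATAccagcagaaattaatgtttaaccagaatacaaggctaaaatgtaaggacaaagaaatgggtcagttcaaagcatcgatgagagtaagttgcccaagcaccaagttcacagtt
*Serpine2*, chr1:79858616-79858915, minus strand: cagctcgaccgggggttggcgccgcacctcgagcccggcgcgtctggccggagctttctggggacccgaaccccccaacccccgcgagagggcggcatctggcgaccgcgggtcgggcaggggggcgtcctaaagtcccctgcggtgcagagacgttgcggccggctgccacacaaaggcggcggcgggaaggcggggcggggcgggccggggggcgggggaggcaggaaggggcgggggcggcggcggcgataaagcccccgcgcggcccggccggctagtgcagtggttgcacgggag
*Gad2*, chr2:22622077-22622376, plus strand: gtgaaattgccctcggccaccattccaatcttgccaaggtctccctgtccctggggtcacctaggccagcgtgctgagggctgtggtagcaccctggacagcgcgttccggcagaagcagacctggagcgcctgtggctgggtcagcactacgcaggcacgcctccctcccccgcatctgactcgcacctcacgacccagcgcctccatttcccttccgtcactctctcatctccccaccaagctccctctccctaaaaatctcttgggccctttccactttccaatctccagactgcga
4 motifs were searched on both strands in all 32851 windows of the table: AAAGGTCA, the element bound by *Nr4a2* and its relatives, TAATCC, the core read by Pitx and Otx homeodomain factors, TGTTTAC, a forkhead core, and TATAAA, the TATA box. They were present in 1.51%, 7.06%, 3.65%, and 13.6% of windows. Of the 27 genes called below, 21 had 24 windows in the table. Among these windows AAAGGTCA was found in 1, the upstream *Ddc* window, where it overlaps a TATAAA on the same strand, and TATAAA in 2 (*Ddc* and *Crhbp*). TAATCC and TGTTTAC were found in 0 of the 24. The second *Ddc* window, at chr11:11890359-11890658 with 54.3% G and C, held 0 matches to the 4 motifs and is not printed. Counts per gene do not show which *Ddc* start these cells used. The *Slc6a3* window shown, with 66.0% G and C, held 0 matches, as did that of *Serpine2* (77.7% G and C) and of *Gad2* (61.3%).

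Across all genes, 27 of the 11322 tested differed between the classes at an adjusted p below 0.05 (0.238% of the genes tested; edgeR quasi-likelihood test with Benjamini-Hochberg adjustment), 20 of them higher in the DAT-high cells (0.177%) and 7 lower (0.0618%). At an unadjusted p below 0.05 there were 797. Each of the 27 moved in the same direction in 6 of 6 mice, and for 26 the values of the classes did not overlap (over all genes tested, 0.645% were higher without overlap and 0.371% lower). The exception was *Cadm2*. The median log2 fold change of all genes was -0.08. DESeq2 called 148 genes (1.31%; 84 higher, 0.742%, and 64 lower, 0.565%), among them all 27. With the mouse as a block, edgeR called 15 (0.132%; 12 higher, 0.106%, and 3 lower, 0.0265%), and 14 of these were among the 27. Leaving out 1 mouse lowered the count to 4 without mouse 2, 5 without mouse 7, 9 without mouse 8, 12 without mouse 5, 16 without mouse 6, and 23 without mouse 1. *Gad2*, *Serpine2*, *Crhbp*, and *Pcdh20* were called each time. *Chrna6*, *Ddc*, *Gldn*, and *Rab3c* were called in 2 of these fits. *Rab6b*, *Hmgcs1*, *Atp6ap2*, *Kcnn3*, *Agk*, *Cadm2*, *Epha7*, *Mfsd9*, *Colgalt2*, *Sdc4*, *Kbtbd11*, and *Pkib* were called in 0 of them.

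**Figure D2:**
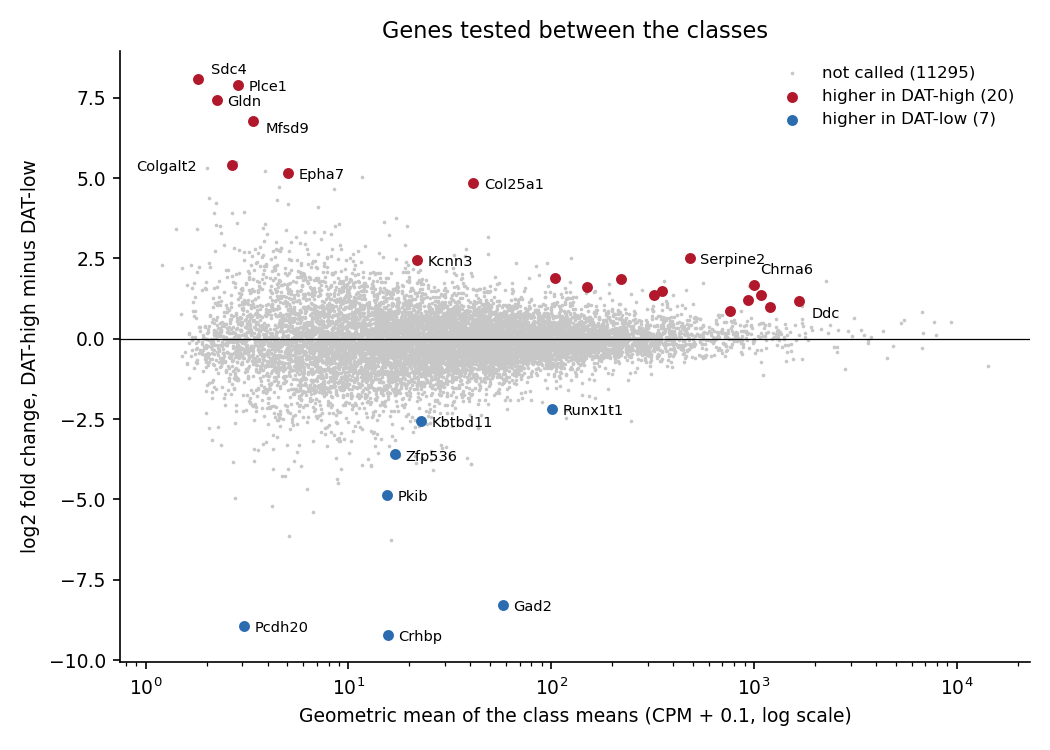
Log2 fold change (DAT-high minus DAT-low) of the 11322 genes tested against the geometric mean of the class means, in CPM plus 0.1 on a log axis, 1 point per gene. Red points are the 20 genes called higher in the DAT-high cells and blue points the 7 called lower; the changes above 5 or below -4 on the log2 scale belong to genes whose mean in one class was 6.30 CPM or less.

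Of the genes of dopamine synthesis and storage, *Ddc* passed the test and was higher in the DAT-high cells. *Ddc* (chromosome 11, 11814101–11898144 of GRCm38), whose enzyme makes dopamine from L-DOPA, ranged from 2002 to 2880 CPM over the 6 DAT-high sums (median 2559) and from 840 to 1467 CPM over the DAT-low sums (median 1012). The highest DAT-low value thus lay below the lowest DAT-high value. The means were 2503 ± 399 and 1107 ± 265 CPM (SD, n = 6 mice), a log2 fold change of 1.18 (SE 0.19, adjusted p = 0.0210, edgeR), and blocking on the mouse gave an adjusted p of 0.0477 (edgeR). *Ddc* was called in 2 of the 6 fits that left out 1 mouse (highest adjusted p = 0.167, edgeR), and was not called with cDNA of 2.5–5 ng/µl (adjusted p = 0.356, edgeR) or without the cells that held *Gad2* (adjusted p = 0.667, log2 fold change 0.55, edgeR). Single cells showed the same order: *Ddc* was above 10 CPM in all 102 DAT-high and all 44 DAT-low cells, with medians of 2670 and 1129 CPM.

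*Slc18a2*, the vesicular monoamine transporter, and *Slc10a4*, a vesicular orphan transporter of monoamine neurons, did not pass the test. *Slc18a2* was at 2596 ± 403 and 1061 ± 480 CPM (log2 fold change 1.29, SE 0.28, adjusted p = 0.0889, edgeR). *Slc10a4* was at 778 ± 152 and 274 ± 110 CPM (log2 fold change 1.51, SE 0.31, adjusted p = 0.0762, edgeR). For both genes the classes did not overlap, and DESeq2 called both (adjusted p = 0.00247 and 0.00128). *Th*, which the choice of cells had already set above a floor, was at 8955 ± 2778 and 5049 ± 1519 CPM (log2 fold change 0.83, SE 0.24). *Maoa*, a dopamine-degrading oxidase of mitochondria, had a log2 fold change of 0.80 (SE 0.30, adjusted p = 0.577, edgeR), and *Gch1*, which makes the cofactor of tyrosine hydroxylase, one of 0.58 (SE 0.71, adjusted p = 0.919, edgeR). Of the 14 listed genes of synthesis, storage, and breakdown, 10 besides *Th*, which chose the cells, were tested. Of the 10, 1 was called higher and 0 lower (0.177% and 0.0618% of all genes tested), 8 had a log2 fold change above 0 (45.0% of all genes did), and the median was 0.69 beside -0.08 for all genes.

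The nicotinic receptor subunit *Chrna6* was another gene of dopamine neurons that was higher with DAT. It ranged from 1001 to 2596 CPM in the DAT-high sums (median 1781) and from 368 to 837 CPM in the DAT-low sums (median 462). The log2 fold change was 1.69 (SE 0.27, adjusted p = 0.0210, edgeR; 0.0477 with the block). *Chrna6* was not called with cDNA of 2.5–5 ng/µl (log2 fold change 1.05, adjusted p = 0.413, edgeR). Nor was it called without the cells that held *Gad2* (1.25, adjusted p = 0.232, edgeR). Of the 6 subunits tested 1 was called higher (0.177% of all genes tested), 5 had a log2 fold change above 0 (45.0% of all genes), and the median was 1.01 (-0.08 for all genes). The partner subunits *Chrna4* (547 ± 164 and 255 ± 104 CPM, log2 fold change 1.10, SE 0.29, adjusted p = 0.261, edgeR) and *Chrnb3* (407 ± 181 and 216 ± 48.9 CPM, log2 fold change 0.91, SE 0.28, adjusted p = 0.356, edgeR) did not pass. *Chrna3* was at 66.1 ± 40.5 and 5.63 ± 5.83 CPM (log2 fold change 3.51, SE 1.10, adjusted p = 0.392, edgeR) and overlapped between the classes.

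Among 27 channels of pacemaking and excitability, 1 passed (0.238% of all genes tested did) and 11 had a log2 fold change above 0 (40.7%, beside 45.0% of all genes). *Kcnn3*, the small-conductance calcium-activated potassium channel SK3, which shapes the regularity of firing in dopamine neurons, ranged from 34.6 to 78.1 CPM in the DAT-high sums (median 43.4) and from 5.61 to 12.6 CPM in the DAT-low sums (median 9.37). Its log2 fold change was 2.45 (SE 0.47, adjusted p = 0.0448, edgeR), and with the block the adjusted p was 0.173 (edgeR). At least 10 CPM was counted in 78 of 102 DAT-high cells and in 12 of 44 DAT-low cells (41 of 57 and 11 of 41 in the mice of the test). The Kv4 channel gene *Kcnd3* was at 245 ± 94.1 and 90.9 ± 41.9 CPM (log2 fold change 1.43, SE 0.37, adjusted p = 0.237, edgeR). *Kcnip1*, a subunit that binds Kv4 channels, was at 1.04 ± 1.91 and 20.9 ± 10.8 CPM (log2 fold change -4.27, SE 1.22, adjusted p = 0.329, edgeR) without overlap. The median over the 27 channels was -0.12, with members from -4.27 to 2.45. *Drd2*, the dopamine autoreceptor, was at 154 ± 42.8 and 73.1 ± 38.1 CPM (log2 fold change 1.08, SE 0.37, adjusted p = 0.507, edgeR), and 0 of the 12 tested genes of autoreceptor and inhibitory signalling were called (0.238% of all genes tested were), with 7 above 0 (58.3%, beside 45.0% of all genes). The DAT-high value of *Drd2* exceeded the DAT-low value in 6 of 6 mice, although the ranges of the classes overlapped.

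*Serpine2* had the lowest adjusted p of the genes that were higher. It encodes protease nexin-1, a secreted inhibitor of thrombin and related proteases, and stood on the list of substantia nigra markers. The DAT-high sums ranged from 700 to 1507 CPM (median 1217) and the DAT-low sums from 177 to 263 CPM (median 192). The log2 fold change was 2.51 (SE 0.24, adjusted p = 0.000106, edgeR; 0.00799 with the block), and it stayed between 2.39 and 2.71 when single mice were left out. *Serpine2* was at 10 CPM or more in 100 of 102 DAT-high cells and in 34 of 44 DAT-low cells, with medians of 1278 and 102 CPM, so the classes differed in level more than in presence. In the mice of the test, 55 of 57 and 31 of 41 cells held this level. *F2r*, the thrombin receptor PAR1, was called in the same direction, at 201 ± 93.8 and 53.5 ± 12.5 CPM (log2 fold change 1.91, SE 0.31, adjusted p = 0.0210, edgeR; 0.0741 with the block).

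Of the 19 tested substantia nigra markers, 1 was called, 17 had a log2 fold change above 0, and the median was 1.29, beside 0.177% called higher, 45.0% above 0, and a median of -0.08 over all genes. This list, like the others, was chosen with earlier results of these data known, so its shares are a description. *Kcns3*, a potassium channel subunit, was at 63.4 ± 58.4 and 2.07 ± 2.98 CPM without overlap (log2 fold change 5.02, SE 1.19, adjusted p = 0.154, edgeR), and *Lix1*, which overlapped, had a DAT-high mean of 183 ± 93.9 CPM (log2 fold change 2.28, SE 0.64, adjusted p = 0.320, edgeR). *Aldh1a1*, an aldehyde dehydrogenase of ventral dopamine neurons, had medians of 4758 and 1262 CPM over mice (log2 fold change 1.80, SE 0.76, adjusted p = 0.656, edgeR), higher in the DAT-high cells of 5 of 6 mice. In mouse 1, with 3 DAT-high cells, it was at 12.5 CPM in the DAT-high and 2125 CPM in the DAT-low cells. Of 17 tested ventral tegmental markers 0 were called, 5 had a log2 fold change above 0 (29.4%), and the median was -0.35. *Slc17a6*, the vesicular glutamate transporter VGLUT2, was at 86.9 ± 81.9 and 314 ± 150 CPM (log2 fold change -1.86, SE 0.69, adjusted p = 0.560, edgeR). *Calb1* was at 844 ± 532 and 831 ± 302 CPM in the sums. Over all cells, mouse 3 included, 60 of 102 DAT-high cells and 41 of 44 DAT-low cells held at least 10 CPM. *Sox6* reached 10 CPM in 62 of 102 and 10 of 44 cells, but 40 of the 102 cells came from mouse 3, which took no part in the sums. In the sums *Sox6* was at 38.2 ± 39.9 and 29.2 ± 20.9 CPM and higher in the DAT-high class of 2 of 6 mice (log2 fold change 0.40, SE 0.95, adjusted p = 0.960, edgeR). *Aldh1a7* was at 168 ± 139 and 102 ± 243 CPM and higher in 4 of 6 mice (log2 fold change 0.74, SE 1.48, not called), with 599 CPM in the DAT-low cells of mouse 6.

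*Nr4a2* and *En1*, transcription factors that maintain midbrain dopamine neurons, did not pass the test. *Nr4a2* was at 431 ± 111 and 379 ± 88.7 CPM (log2 fold change 0.19, SE 0.23, adjusted p = 0.919, edgeR), and *En1* at 131 ± 37.8 and 113 ± 48.2 CPM (log2 fold change 0.22, SE 0.33, adjusted p = 0.934, edgeR). Of the 19 dopamine identity factors tested 0 were called (0.238% of all genes tested were), 14 had a log2 fold change above 0 (73.7%, beside 45.0% of all genes), and the median was 0.23.

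Of the vesicle genes, *Rab3c* was higher in the DAT-high cells. *Rab3c*, a Rab GTPase of synaptic vesicles, ranged from 1074 to 2395 CPM (median 1671) against 473 to 955 CPM (median 649), a log2 fold change of 1.38 (SE 0.23, adjusted p = 0.0235, edgeR; 0.0281 with the block). It was the 1 gene called among 30 tested genes of vesicles and exocytosis, of which 20 had a log2 fold change above 0 (66.7%), with a median of 0.35, beside 0.177% called higher and 45.0% above 0 over all genes. *Syt1*, the calcium sensor of fast release, was at 2468 ± 510 and 1215 ± 453 CPM (log2 fold change 1.02, SE 0.27, adjusted p = 0.248, edgeR), while its list fellow *Rab3b* was at 90.6 ± 36.6 and 423 ± 380 CPM (log2 fold change -2.22, SE 0.59, adjusted p = 0.269, edgeR). *Rab6b*, a neuronal Rab of the Golgi, *Hmgcs1*, an enzyme of cholesterol synthesis, and *Atp6ap2*, an accessory subunit of the vesicular proton pump, were called as well and are named although the rule for named genes does not cover them. Their log2 fold changes were 1.35, 1.20, and 0.88, and with the mouse as a block *Atp6ap2* lost its call (adjusted p = 0.0706, edgeR).

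*Col25a1*, a transmembrane collagen of neurons, had the largest log2 fold change among the genes called higher whose DAT-high mean exceeded 100 CPM. It ranged from 20.3 to 391 CPM in the DAT-high sums (median 207) and from 0.567 to 16.0 CPM in the DAT-low sums (median 7.69). The lowest DAT-high value, that of mouse 1, stood close to the highest DAT-low value, that of mouse 8, and the log2 fold change was 4.84 (SE 0.71, adjusted p = 0.00986, edgeR; 0.00269 with the block). At least 10 CPM was counted in 90 of 102 and 10 of 44 cells (45 of 57 and 7 of 41 in the mice of the test). *Rap1gds1*, an exchange factor for small GTPases, *Agk*, a lipid kinase of mitochondria, and *Cadm2*, a synaptic adhesion molecule, were at 592, 262, and 424 CPM in the DAT-high and 210, 86.0, and 115 CPM in the DAT-low sums on average. *Agk* was not called with the block (adjusted p = 0.0706, edgeR).

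Some called genes had counts in part of the DAT-high cells and few counts in the DAT-low sums. *Plce1*, a phospholipase C, was at 38.9 ± 33.8 and 0.108 ± 0.196 CPM, and at least 10 CPM was counted in 40 of 102 and 0 of 44 cells, which allows a share of up to 6.82%. In the mice of the test, 21 of 57 and 0 of 41 cells held this level. *Gldn*, which encodes gliomedin, was at 24.2 ± 13.4 and 0.108 ± 0.264 CPM, and 53 of 102 and 1 of 44 cells held at least 10 CPM (25 of 57 and 0 of 41 in the mice of the test). *Epha7*, an ephrin receptor, was at 30.1 ± 8.91 and 0.750 ± 0.977 CPM, *Mfsd9* at 32.4 ± 27.4 and 0.255 ± 0.358 CPM, and *Colgalt2*, a collagen galactosyltransferase, at 16.5 ± 15.5 and 0.331 ± 0.331 CPM. *Sdc4*, a heparan sulfate proteoglycan, had 583 counts in 14 of the 57 DAT-high cells and 1 count in the 41 DAT-low cells, a ratio of 360 after scaling to the totals (exact 95% interval 64.4–14256, which covers counting error only). Over all 102 and 44 cells, with mice 3 and 4 included, *Sdc4* was at 12.3 and 2.01 CPM, so the larger ratio holds for the 6 mice of the test alone. The log2 fold changes of *Plce1* (7.90) and *Gldn* (7.45) rest on 6 and 4 counts in the DAT-low class. With the block, *Plce1* and *Gldn* kept their call (adjusted p = 0.0477 for each, edgeR), and *Epha7*, *Mfsd9*, *Colgalt2*, and *Sdc4* did not (0.126, 0.225, 0.148, and 0.0561).

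Of the genes lower in the DAT-high cells, *Gad2* was the most clearly separated. It encodes GAD65, which makes GABA for synaptic release. The 6 DAT-high sums lay between 1.17 and 7.50 CPM (median 2.34) and the 6 DAT-low sums between 171 and 2177 CPM (median 846). The DAT-low values spread over more than 10-fold among mice, and the lowest of them, that of mouse 7, was still above every DAT-high value. The log2 fold change was -8.28 (SE 0.70, adjusted p = 5.21e-05, edgeR; 0.00376 with the block). *Gad1*, which encodes the other GABA-synthesizing enzyme, was at 1.80 ± 3.64 and 140 ± 179 CPM (log2 fold change -6.28, SE 1.56, adjusted p = 0.191, edgeR), with overlap between the classes. Of the 8 tested genes of glutamate and GABA co-transmission, *Gad2* was the 1 called (0.0618% of all genes tested were called lower), and the median was -0.01.

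*Crhbp*, whose protein binds corticotropin-releasing hormone, ranged from 0 to 2.69 CPM in the DAT-high sums (median 0.204) and from 41.3 to 933 CPM in the DAT-low sums (median 225). Its log2 fold change was -9.21 (SE 1.04, adjusted p = 0.000794, edgeR; 0.0281 with the block). The protocadherin gene *Pcdh20* ranged from 0 to 0.291 CPM (median 0) and from 5.21 to 119 CPM (median 40.3), a log2 fold change of -8.94 (SE 1.20, adjusted p = 0.00530, edgeR; 0.0281 with the block). Single cells gave large shares of these reads: 1 cell of mouse 1 gave 21.9% of the *Crhbp* reads of the DAT-low class, and 1 cell of mouse 5 gave 31.7% of the *Pcdh20* reads. *Crhbp* reached 10 CPM in 13 and *Pcdh20* in 12 of the 41 DAT-low cells, in 6 mice each.

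The other 4 genes called lower were *Runx1t1*, a transcriptional corepressor, *Zfp536*, a zinc finger protein, *Kbtbd11*, and *Pkib*, an inhibitor of protein kinase A. *Runx1t1* was at 47.5 ± 12.2 and 216 ± 125 CPM (log2 fold change -2.18), *Zfp536* at 4.81 ± 4.19 and 58.4 ± 27.1 CPM (-3.60), *Kbtbd11* at 9.32 ± 3.98 and 54.9 ± 8.06 CPM (-2.55), and *Pkib* at 2.77 ± 3.02 and 83.5 ± 51.6 CPM (-4.85). None of these 4 was called with the mouse as a block (adjusted p = 0.0719, 0.0846, 0.210, and 0.176, edgeR). The next genes by p in this direction did not pass: *Ndst3*, a heparan sulfate-modifying enzyme (log2 fold change -3.64, adjusted p = 0.0678), *Ahi1* (-1.14, adjusted p = 0.0762), and the serotonin receptor gene *Htr2c* (-3.36, adjusted p = 0.0762, edgeR).

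**Figure D3:**
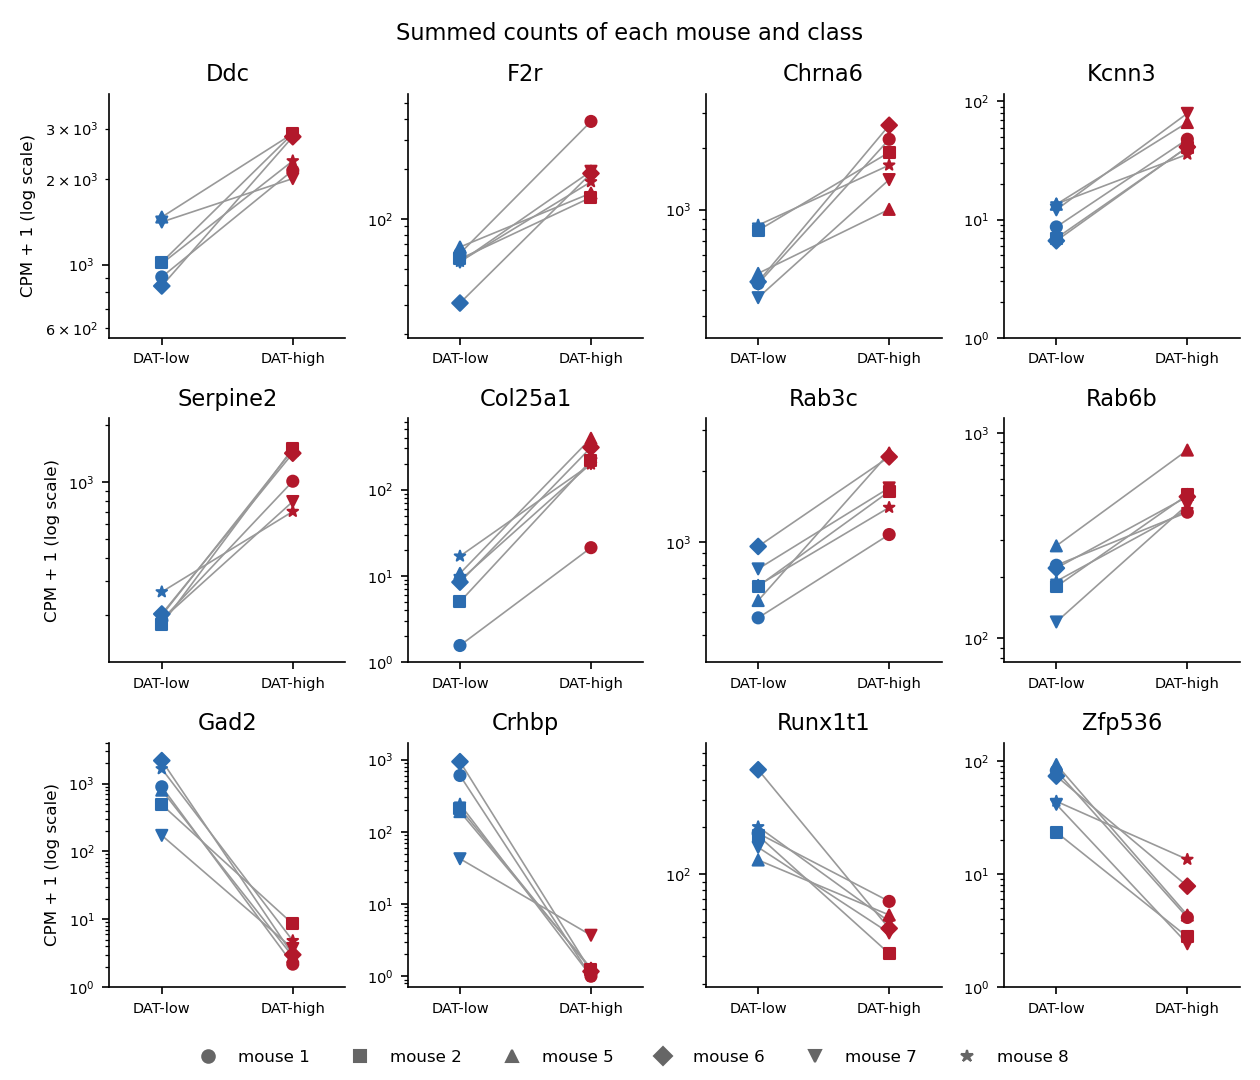
Level of 12 called genes in the summed counts of each of the 6 mice, in CPM plus 1 on log axes, with DAT-low sums in blue and DAT-high sums in red and a line joining the classes of a mouse. In each panel all 6 lines run in one direction; *Gad2* falls from between 171 and 2177 CPM to between 1.17 and 7.50 CPM, and *Col25a1* of mouse 1, at 20.3 CPM in the DAT-high sum, lies below the other DAT-high sums.

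The DAT-low cells were not of 1 kind. With a limit of 10 CPM, set after the data were seen, *Gad2* was present in 25 of the 44 DAT-low cells and in 3 of the 102 DAT-high cells. All 6 mice of the test had such DAT-low cells: 4 of 5 in mouse 1, 4 of 7 in mouse 2, 2 of 7 in mouse 5, 2 of 3 in mouse 6, 4 of 8 in mouse 7, and 9 of 11 in mouse 8. The DAT-low cells with *Gad2* had a median *Th* of 2591 CPM and a median *Slc6a3* of 664 CPM, and the 19 without it had 7297 and 1048 CPM. *Ddc* had medians of 841 and 1724 CPM, *Chrna6* 175 and 566 CPM, and *Serpine2* 88.2 and 113 CPM. The medians of both kinds thus lay below the DAT-high medians of 2670 CPM for *Ddc* and 1278 CPM for *Serpine2*.

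The 25 cells fell apart further. In 8 of them, from 5 mice, *Six6*, a homeodomain factor of the hypothalamus, was also at 10 CPM or more. All 8 held *Gad1* (27.5–1413 CPM), 6 held *Gal*, the gene of the peptide galanin, and 4 held *En1*, while 1 held *Slc17a6*. In the other 17 cells, from 6 mice, *Gad1* reached 10 CPM in 0 cells, which allows a share of up to 17.6%, *Gal* had no count, and *En1* was present in 16 (median 96.3 CPM), *Slc17a6* in 16 (median 448 CPM), and *Crhbp* in 10. *Gad2* had a median of 2094 CPM in these 17, and *Slc32a1*, the vesicular GABA transporter, reached 10 CPM in 7 of them. Among the 19 DAT-low cells without *Gad2*, *Slc17a6* was present in 17, *Calb1* in 18, *Cck* in 17, and *Otx2* in 13. *En1*, a gene of the midbrain and hindbrain, was at 10 CPM or more in 101 of 102 DAT-high and 38 of 44 DAT-low cells. The tissue is labelled midbrain, but the dissection included the hypothalamus. Of 21 markers of hypothalamic and other cells 6 passed the filter on low counts, with 0 called (0.238% of all genes tested were). The summed level of all 21 was 15.1–186 CPM in the DAT-high sums and 198–1124 CPM in the DAT-low sums. In the sums, *Six6* was at 0.562 ± 1.20 and 38.8 ± 61.4 CPM (log2 fold change -6.13, SE 1.79, adjusted p = 0.339, edgeR).

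**Figure D4:**
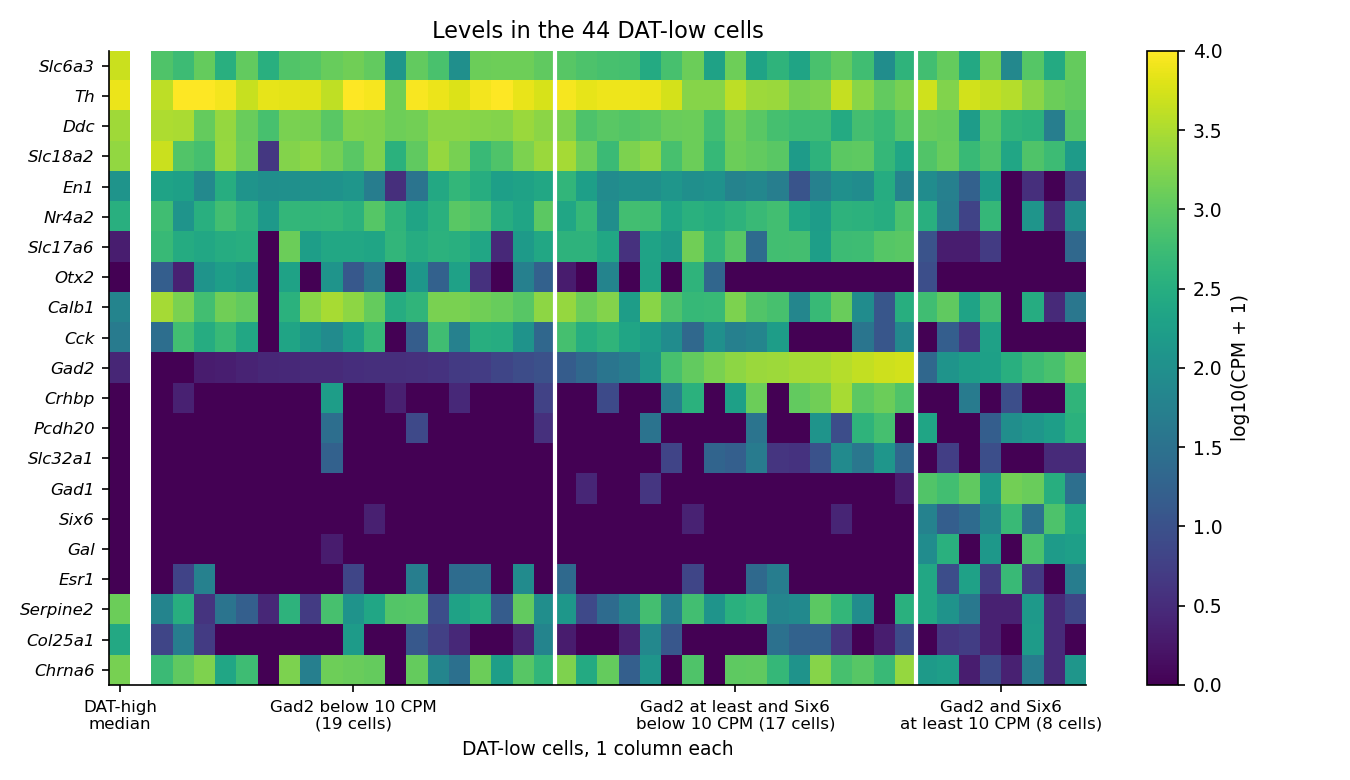
Level of 21 genes (rows) in the 44 DAT-low cells (columns), as log10 of CPM plus 1, with the median of the 102 DAT-high cells at the left. White lines part the 19 cells with *Gad2* below 10 CPM, the 17 with *Gad2* and without *Six6*, and the 8 with both; *Gad1* and *Gal* appear in the last block, and *Serpine2* and *Col25a1* are below the DAT-high median in all 44 columns.

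When the cells with *Gad2* at 10 CPM or more were left out of both classes, an alternative added after the data were seen, 3 male mice (2, 5, and 7) still had 3 cells of each class and 0 genes passed edgeR's test (896 at an unadjusted p below 0.05; DESeq2 was not run on these cells). Of the 27 genes 25 could still be tested, among them *Gad2*, whose level had removed the cells. The log2 fold change of *Serpine2* was then 3.26, of *Col25a1* 5.73, of *Chrna6* 1.25, and of *Ddc* 0.55. For *F2r*, *Agk*, *Runx1t1*, and *Pkib* it was 0.75, 0.89, -1.62, and -1.67, against 1.91, 1.60, -2.18, and -4.85 in the main test. *Zfp536* (-3.61) and *Kbtbd11* (-2.66) stayed near their values of -3.60 and -2.55. *Crhbp* and *Pcdh20* had too few counts to be tested. Without the cells that held *Slc32a1* at 10 CPM or more, 5 mice remained, and *Gad2* and *Serpine2* were the 2 genes called (log2 fold changes -6.50 and 2.49). Without cells of fewer than 7000 detected genes mouse 6 no longer qualified, and 7 genes were called, of which 5 were among the 27.

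The 35 *Th*-rich cells between the limits, which took no part in the test, are described by their pooled counts. Their pooled level lay between those of the pooled DAT-high and DAT-low cells for all 27 called genes. These genes were picked for a difference between the ends, so this order is no separate evidence. Its share over all genes was not counted. Of the 102 pooled DAT-high cells, 40 came from mouse 3, which was not in the test. *Ddc* was at 2663, 2216, and 1233 CPM in the DAT-high, middle, and DAT-low cells, *Chrna6* at 1542, 902, and 666 CPM, and *Serpine2* at 1306, 342, and 230 CPM. *Serpine2* in the middle cells was thus nearer to the DAT-low level and *Ddc* nearer to the DAT-high level. For *Gad2* (11.1, 32.9, and 926 CPM) the middle level came largely from 1 cell at 995 CPM, and the medians over cells were 1.74, 2.35, and 28.5 CPM. The middle level of *Pcdh20* likewise came largely from 1 cell, at 960 CPM. For *Crhbp* and *Pkib* the highest middle cell was at 443 and 887 CPM, beside pooled middle levels of 17.6 and 36.3 CPM. In cells of 100000 to below 500000 counts, which were also not used, 28 were DAT-high and 12 DAT-low by the same limits, and the pooled levels differed in the same direction for 22 of the 27 genes. The 5 that did not were *Colgalt2*, *Pcdh20*, *Runx1t1*, *Kbtbd11*, and *Pkib*. The share over all genes was not counted. Sizes varied: *Plce1* was at 23.4 and 19.0 CPM in these DAT-high and DAT-low cells, and *Serpine2* at 955 and 403 CPM.

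Among the remaining lists, 0 of 34 genes of oxidative phosphorylation, 0 of 20 of the axon cytoskeleton, 0 of 10 neurotrophic factor receptors and ligands, and 0 of 13 immediate early and stress genes were called (0.238% of all genes tested were), with median log2 fold changes of -0.25, 0.18, 0.02, and -1.14. At an unadjusted p below 0.05 there were 2, 7, 2, and 4 genes, beside 7.04% of all genes tested. The lowest p of each list, none of which passed after adjustment, belonged to *Cox5b* of the respiratory chain (-0.76, SE 0.29), the intermediate filament gene *Prph* (4.33, SE 1.24), *Ret*, the receptor of glial cell line-derived neurotrophic factor (0.74, SE 0.20), and *Fosb*, an activity-regulated factor (-3.04, SE 0.83). *Fos* was at 154 ± 166 and 376 ± 245 CPM (log2 fold change -1.30, SE 0.59, adjusted p = 0.700, edgeR).

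Oligodendrocyte transcripts were counted in both classes. The summed level of 8 oligodendrocyte markers was 4.50–64.1 CPM in the DAT-high sums and 19.3–373 CPM in the DAT-low sums, with 1 marker at 0 in each class. Of the 3 tested, 0 were called (0.238% of all genes tested were): *Mbp* was at 12.7 ± 16.4 and 54.5 ± 25.2 CPM. Their part in the differences was not tested. Summed astrocyte markers reached 18.7 and 10.6 CPM, microglia markers 2.30 and 1.38 CPM, endothelial markers 45.0 and 49.7 CPM, and markers of serotonin and noradrenaline neurons 10.2 and 2.68 CPM at most in the DAT-high and DAT-low sums, with 4, 5, 5, and 5 markers at 0 in the DAT-high and 2, 4, 4, and 6 in the DAT-low class.

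**Figure D5:**
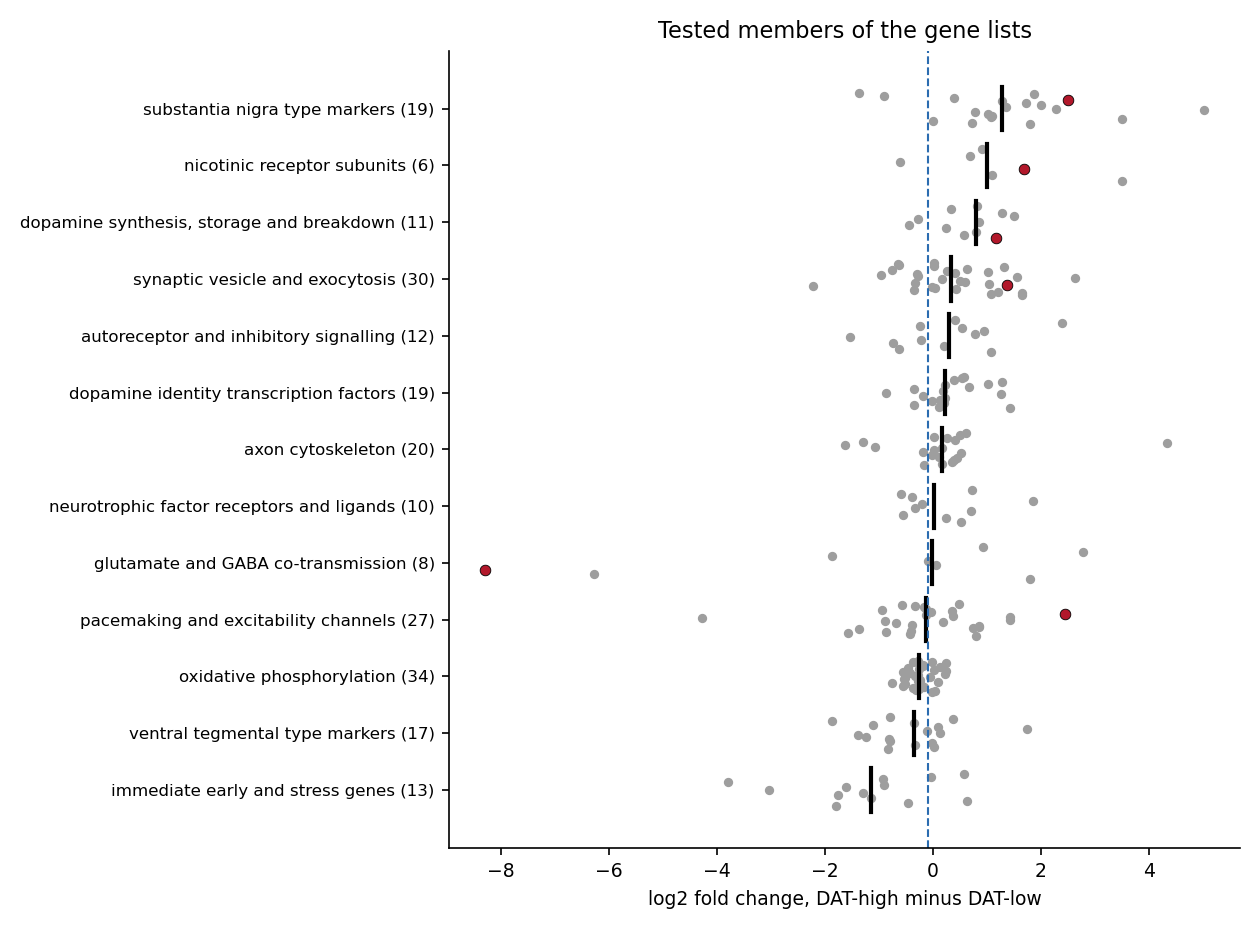
Log2 fold change (DAT-high minus DAT-low) of the tested members of each gene list shown, 1 point per gene, with the number tested in brackets. *Th*, which chose the cells, is among the points of dopamine synthesis. Red points are called genes, the black bar is the median of the list, and the dashed line is the median of all 11322 genes at -0.08; medians run from -1.14 for the immediate early and stress genes (13 of 20 tested) to 1.29 for the substantia nigra markers (19 of 20 tested), and lists with few members past the filter on low counts are not shown.

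Whether the difference between the classes depended on sex was tested as an interaction in the 6 mice, with the sexes that the labels of the samples give; the design text of the series gives other numbers of mice per sex. EdgeR called 0 of 11322 genes, with 1147 at an unadjusted p below 0.05, and DESeq2 called 257. With 2 female mice, 9 DAT-high and 8 DAT-low cells stood behind the female side of this test.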

How the data were processed

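Single tdTomato+ cells were sequenced on C1 chips, and the authors deposited raw read counts per gene without normalization. The reads had been trimmed with Trimmomatic 0.3.2, aligned by TopHat2 2.1.1 to the GRCm38.3 build, and assigned to RefSeq genes by featureCounts 1.5.0-p3, leaving out reads on more than 1 gene. The sources used here name no molecular identifiers, so that counts are reads. Wells with doublets had been left out by eye by the authors, and no doublet caller was run here.

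Groups, sexes, and ages followed the labels of the samples, although the series text gives other numbers of mice per sex. Members and gene lists were chosen with earlier results of these data known. CPM values were taken over all gene counts of a cell. Spike-in and transgene entries, 5.20e-06% and 0.00456% of counts, were left out. Counts were summed per mouse and class and tested with edgeR 4.0.16 (R 4.3.3; quasi-likelihood F-test, TMM factors, filterByExpr, Benjamini-Hochberg adjustment over all genes tested, threshold 0.05), without *Slc6a3*. Alternatives used DESeq2 1.42.0, the mouse as a block, and other cell limits. The pipeline was tested on simulated data. Both classes came from the same mice, which is the source of the pairing. The main test and the test of the interaction with sex did not use this pairing. Their deviations correlated by 0.00933–0.113 across genes. No 2 cells had identical counts. Per-mouse values were compared by exact sign-flip permutation (scipy 1.17.1).

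Named genes were those of the lists with the smallest p in each, up to 15 called genes a direction with the largest change, the same sign in every mouse, and at least 10 CPM in the higher class, and, in a direction with fewer than 10 calls, the next genes by p up to 10. Other named genes were chosen after their values were seen. A few genes, and the lists whose result rests on them, are not reported here.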

Additional observations from a re-analysis of the deposited data

Results flagged for a closer look

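In 11 of 70 groups of 6 mice that were looked at, the highest or lowest value lay far from the rest, with a gap above 0.625 of the range (Dixon's limit for 6 values). The limit is set to flag about 5% of groups of independent, normally distributed values, and groups with levels near 0 do not meet this condition. In the DAT-low sums, mouse 8 was highest for *Serpine2* (263 CPM, the next at 201 CPM) and for *Plce1* (0.487 CPM, the next at 0.162 CPM). Mouse 6 was highest for *Runx1t1* (465 CPM, the next at 200.4 CPM) and *Sdc4* (0.624 CPM, the others at 0) and lowest for *F2r* (29.9 CPM, the next at 53.8 CPM). Mouse 5 was highest for *Gldn* (0.647 CPM, the others at 0). In the DAT-high sums, mouse 7 was highest for *Crhbp* (2.69 CPM, the next at 0.291 CPM), mouse 1 for *F2r* (387 CPM, the next at 193 CPM) and *Colgalt2* (46.4 CPM, the next at 19.0 CPM), and mouse 5 for *Rab6b* (825 CPM, the next at 499 CPM). Mouse 5 also had the highest DAT-high cDNA concentration (8.55 ng/µl, the next at 5.31 ng/µl). The DAT-low sums of mouse 6 came from 3 cells, and so did the DAT-high sums of mouse 1.

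The count table also held 2 entries for transgene sequences, which no comparison used. Counts on the entry named for CreER averaged 73.4 ± 24.9 CPM (SD, n = 6 mice) in the DAT-high sums and 7.30 ± 6.58 CPM in the DAT-low sums, and were higher in the DAT-high class of 6 of 6 mice. Because Cre is made from the *Slc6a3* locus that set the classes, no test was run on this entry. At least 10 CPM was counted in 87 of 102 DAT-high, 18 of 35 middle, and 9 of 44 DAT-low cells. Counts on the tdTomato entry averaged 11.8 ± 3.55 CPM in the DAT-high and 16.3 ± 8.72 CPM in the DAT-low sums, higher in the DAT-high class of 2 of 6 mice (two-sided exact permutation of signs, p = 0.34375).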

How the results depend on the processing

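With the mouse as a replicate block, edgeR called 12 genes higher and 3 lower in the DAT-high cells, and DESeq2 called 298 and 177 (without the block 84 and 64). Counts higher and lower were 3 and 0 with *Slc6a3* split at 2000 CPM, 4 and 0 with *Th* of at least 3000 CPM, 8 and 3 with at least 5 cells a side, 1 and 1 without cells with *Slc32a1*, 0 and 0 for lane 1 (5.32% of genes at an unadjusted p below 0.05), 3 and 1 for lane 2, 1 and 1 for the C1 machine SMEAGOL, and 0 and 0 for the machine FRODO (5.71%). DESeq2 was not run on single lanes or machines. Without a filter on low counts 13 genes were called higher. Settings added after the data were seen gave 2 and 2 (cDNA of 2.5–5 ng/µl), 4 and 3 (without cells under 7000 detected genes), and 0 and 0 (without cells with *Gad2*). With each mouse left out in turn the counts were 1–17 higher and 3–6 lower. These settings also change the number of mice or cells, and the cause of each change was not tested. Relative log expression size factors (19 and 7), *Slc6a3* kept (21 and 7), limits of 4000 and 1000 CPM (14 and 8), thinned cells (16 and 7), and totals of at least 250000 (18 and 8) gave counts within 1.5 times, although with limits of 4000 and 1000 CPM 12 of the 22 genes called were among the 27. Over the alternatives the 27 genes gave 692 values, of which 267 stayed past the threshold and 425 did not. Their unchanged direction is no separate evidence, since each had 1 sign in all 6 mice and the alternatives reuse the same cells. In the shallower cells, which the test did not use, 22 of the 27 had the same direction, and the share over all genes was not counted. With a mouse left out, the class difference was 141442–194066 in total counts, 1117–1441 in detected genes, and 1.46–2.15 ng/µl in cDNA, with an exact p of 0.0625, the smallest 5 mice allow. For the interaction with sex, DESeq2 called 257 genes and edgeR 0 under each setting tried. The alternative of cells with 100000 to 500000 counts could not be fitted, since 1 mouse qualified.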
